A study of Homo sapiens with 24 samples.

Results

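The response of SAS cells to a single X-ray dose of 4 Gy in the presence of GSK-J1 was taken from 6 of the 24 RNA-seq libraries of the series, 3 of cells given GSK-J1 plus 4 Gy and 3 of cells given GSK-J1 alone. SAS and Cal33 are head and neck squamous cell carcinoma (HNSCC) lines of the tongue, and each line was sequenced as sham, 4 Gy, GSK-J1 and GSK-J1 plus 4 Gy in 3 replicates. Both groups compared here received GSK-J1 at 4.5 µM, labelled as its IC5, and RNA was isolated after 24 h of treatment. No genetic change was introduced, and as labelled the 2 groups differ by the irradiation alone, and the question is which transcripts respond to 4 Gy while the inhibitor is present. Each group is 1 cell line in culture. The labels do not say that the replicates were separate cultures, so the p-values measure the spread between these libraries, which may be technical.

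GSK-J1 inhibits KDM6A (UTX) and KDM6B (JMJD3), the demethylases that remove the repressive trimethyl mark from lysine 27 of histone H3. Ionizing radiation breaks both strands of DNA, and cells answer through the ATM and ATR kinases, which hold the cell cycle, start repair and, where p53 is functional, raise p53 targets such as the cyclin-dependent kinase inhibitor CDKN1A. Later after irradiation, surviving carcinoma cells can turn on NF-κB-driven cytokines, interferon-stimulated genes and genes of matrix remodelling, a pattern that overlaps with the senescence-associated secretory phenotype.

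The 6 libraries held 70331447 to 96528964 counts on the strand of a gene, and 94.43 to 95.18% of all gene counts lay on that strand. Replicate 1 of both groups carried a trace of Cal33 RNA, read from 8 genes that Cal33 expresses, among them FAT1 and PTPRZ1. The genes were picked for near-absence from the SAS libraries without GSK-J1, so the low level in those libraries follows from the choice. In replicate 1 their level was 1.362% of the Cal33 level in the GSK-J1 library and 0.7139% in the GSK-J1 plus 4 Gy library. Replicates 2 and 3 of both groups, the libraries left for the contrast, reached 0.004862% at most. For every gene named below to which this trace could give at least 10% of the counts of a replicate 1 library, that share is stated. Leaving out every gene open to the trace gave 2327 genes called higher and 2366 lower, against 2385 and 2402 with them. Same-numbered libraries of both groups deviated together from their group means (correlations over genes of 0.338, 0.194 and 0.35), and the comparison was made within the 3 pairs.

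A total of 4787 of 23720 genes tested (20.2%) passed an adjusted p of 0.05 and are called changed, 2385 higher (10.1%) and 2402 lower (10.1%) after irradiation. These shares stand beside the gene lists below and are not matched to them for length or level. Of the 4744 genes with the shortest summed exons 136 were called higher and 124 lower, and of the 4744 with the longest 633 and 694. The median log2 fold change of the genes called was 0.42 for those higher and −0.44 for those lower, and 503 rose and 199 fell at least 2-fold. Of the 4787 genes, 4656 moved in the same direction in all 3 pairs, and in 3383 the 3 irradiated libraries lay entirely above or below the 3 non-irradiated libraries, which holds for 6123 (25.8%) of all genes tested. Without the replicate number as a block, 324 genes were called higher and 216 lower. Without replicate 1, in which the Cal33 trace lies, 1922 were called higher and 1840 lower, and 3416 of the 4787 passed again with the same sign. Without replicate 2 the counts were 1525 higher and 1485 lower, and without replicate 3 they were 2300 higher and 2424 lower.

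Among called genes with a mean of at least 100 counts, the largest rise was that of RGS4, a GTPase-activating protein that shortens G-protein signalling. RGS4 stood at 1.00, 2.58 and 1.05 CPM (counts scaled to a common library size) in replicates 1, 2 and 3 under GSK-J1 and at 15.7, 33.7 and 19.0 CPM after GSK-J1 plus 4 Gy. Its lowest irradiated library was thus well above its highest non-irradiated library, and the log2 fold change was 3.93 ± 0.12 (SE; adjusted p = 8.23e-12). CDH11, which encodes a mesenchymal cadherin, went from 0.960, 0.597 and 0.785 CPM to 8.51, 5.72 and 6.44 CPM (log2 fold change 3.14 ± 0.14). HSD11B1, the enzyme that reactivates cortisone to cortisol, went from 1.40, 1.47 and 0.975 CPM to 11.6, 9.87 and 7.75 CPM (2.93 ± 0.12). The 12 genes with the largest rise lay between log2 fold changes of 2.28 and 3.93. Their groups did not overlap, which holds for 25.8% of all genes tested. The 12 were picked by these same values and by a rise in all 3 pairs, so this is no separate support.

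Among the same 12 genes were 2 keratin-related genes, KRTAP2-3 (log2 fold change 2.97 ± 0.12) and KRT81 (2.44 ± 0.15), and the epidermal protease inhibitor PI3, also called elafin (2.44 ± 0.13). Receptor and ligand genes of the tumour necrosis factor superfamily were there too, TNFRSF19 (2.56 ± 0.15) and TNFSF18, the GITR ligand (2.37 ± 0.17). The remaining members were the chemokine genes IL8 and CXCL1, the growth factor gene CSF2 and the matrix gene FN1, described with their groups. FN1 had a mean of 135 ± 77.3 CPM (SD, n = 3) under GSK-J1 and 601 ± 144 CPM after GSK-J1 plus 4 Gy.

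**Figure D1:**
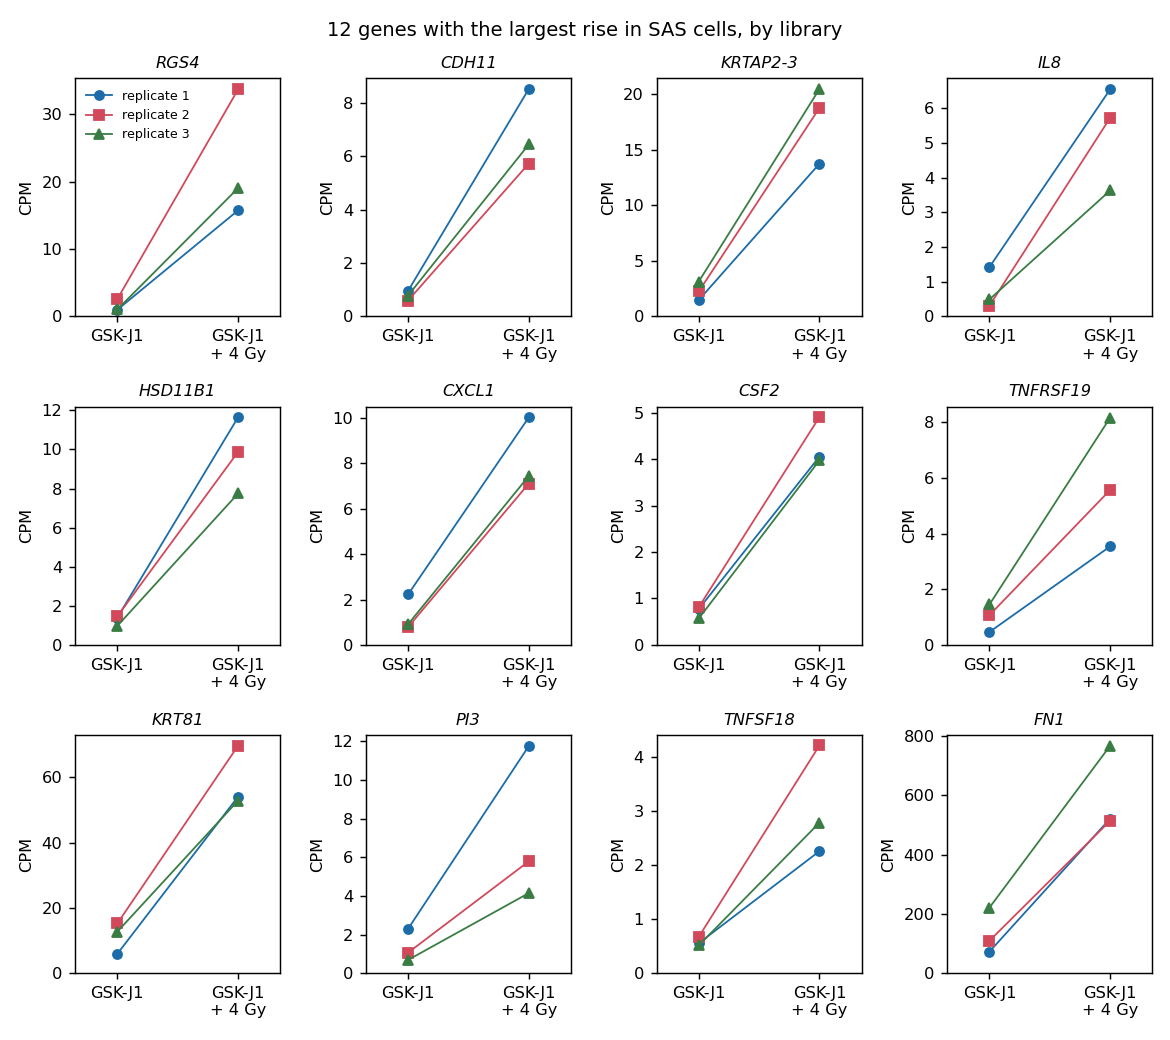
CPM of the 12 genes with the largest log2 rise among called genes with a mean of at least 100 counts, in SAS cells given GSK-J1 (left of each panel) and GSK-J1 plus 4 Gy (right). Each line joins the libraries of 1 replicate number and each axis starts at 0. Every line rises, as the rule that picked the genes required, for RGS4 from at most 2.58 CPM to at least 15.7 CPM.

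NF-κB target and cytokine genes rose as a group. The members of this list and of the lists below were chosen with earlier results of these data known. Of 40 members tested, 32 were called higher and 2 lower, beside 10.1% of all genes tested in each direction. At least 10% of the replicate 1 counts could be Cal33 trace in 8 of the 40, 7 of which were called. Of the 32 called higher, 25 were not open to the trace. The median log2 fold change was 1.01, against 0.01 over all genes tested. In 24 of the 40 (60%) the groups did not overlap, beside 25.8% of all genes. Without the replicate block 15 were called higher and none lower, and without replicate 1 the counts were 31 and 2. The 2 called lower were S100A9 and CSF1, both named after their values were seen. With DESeq2 and the same block their adjusted p were 0.283 and 0.121, and that of S100A9 was 0.109 in edgeR without replicate 2.

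The neutrophil chemokine IL8 (CXCL8) rose from 1.43, 0.312 and 0.494 CPM to 6.55, 5.73 and 3.63 CPM, a log2 fold change of 2.94 ± 0.24 (adjusted p = 8.4e-07). Up to 34% of its counts in a replicate 1 library could come from the Cal33 trace, and without replicate 1 the log2 fold change was 3.49. The related chemokine CXCL1 rose from 2.23, 0.787 and 0.911 CPM to 10.0, 7.11 and 7.45 CPM (2.74 ± 0.17, trace share up to 12.2%, and 3.10 without replicate 1). In both genes the replicate 1 library was the highest of the GSK-J1 libraries.

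CSF2, which encodes the growth factor GM-CSF, rose from 0.773, 0.814 and 0.570 CPM to 4.05, 4.91 and 3.98 CPM (2.59 ± 0.15, adjusted p = 2.48e-08). IL6, an inflammatory cytokine that signals through STAT3, rose from 2.07, 1.47 and 1.95 CPM to 5.67, 9.75 and 8.98 CPM (2.13 ± 0.18). Feedback inhibitors of the pathway rose as well: TNFAIP3 (A20), which removes ubiquitin from signalling intermediates, went from 15.1, 9.02 and 16.4 CPM to 46.7, 52.2 and 51.2 CPM (1.92 ± 0.13). The ubiquitin ligase gene BIRC3 rose by 1.63 ± 0.15 and the adhesion receptor gene ICAM1 by 1.08 ± 0.09 on the log2 scale. ICAM1 stood at 82.0, 51.1 and 49.8 CPM under GSK-J1 and 141, 125 and 113 CPM after irradiation, with no overlap.

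The 150 bases before the RefSeq start site of 5 of these genes (GRCh38.p14, 5′ to 3′) are shown because the NF-κB and AP-1 motifs that the field links with this group can be read in them. Capitals mark GGNNNTTCC, the NF-κB consensus GGGRNWYYCC, in which GGNNNTTCC can lie, and the AP-1 motif TGANTCA, each searched on both strands. In these motifs R is A or G, W is A or T, Y is C or T and N is any base. These motifs were chosen with the results known.
IL8 (CXCL8), chr4:73740419-73740568, plus strand: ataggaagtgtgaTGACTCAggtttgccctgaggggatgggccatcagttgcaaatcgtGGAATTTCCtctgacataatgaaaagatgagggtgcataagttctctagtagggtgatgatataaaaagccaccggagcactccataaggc
CXCL1, chr4:73869243-73869392, plus strand: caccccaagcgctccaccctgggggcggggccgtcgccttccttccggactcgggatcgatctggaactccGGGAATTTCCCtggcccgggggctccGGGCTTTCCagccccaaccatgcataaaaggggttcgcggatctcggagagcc
CSF2, chr5:132073639-132073788, plus strand: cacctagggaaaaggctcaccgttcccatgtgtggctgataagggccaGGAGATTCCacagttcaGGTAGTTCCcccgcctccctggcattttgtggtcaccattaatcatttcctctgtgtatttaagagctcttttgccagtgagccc
IL6, chr7:22727050-22727199, plus strand: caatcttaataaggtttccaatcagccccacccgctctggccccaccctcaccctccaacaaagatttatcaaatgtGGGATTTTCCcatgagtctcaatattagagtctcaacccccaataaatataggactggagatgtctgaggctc
TNFAIP3, chr6:137867109-137867258, plus strand: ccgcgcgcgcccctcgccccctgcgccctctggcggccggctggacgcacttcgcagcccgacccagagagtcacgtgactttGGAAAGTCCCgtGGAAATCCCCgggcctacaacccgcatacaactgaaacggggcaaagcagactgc
In the 300-base windows from 250 bases before to 50 after the start, GGNNNTTCC occurs in 20.1%, the NF-κB consensus in 5.72% and TGANTCA in 7.76% of 27305 genes. Only 23 of the 32 members called higher have a window, under the 80% needed, so a share over the list is void. A match in letters is a description of the window and was not tested as a binding site.

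Genes of epithelial-mesenchymal transition (EMT), TGF-β and YAP signalling gave 25 members called higher (54.3%) and 5 lower (10.9%) of 46, with a median log2 fold change of 0.34. Of all genes tested, 10.1% were called in each direction. Without the block the counts were 8 and 0, and without replicate 1 they were 25 and 3. FN1, the extracellular matrix protein fibronectin, stood at 73.4, 110 and 222 CPM under GSK-J1 and at 522, 515 and 767 CPM after irradiation (log2 fold change 2.28 ± 0.13, adjusted p = 2.2e-08). The GSK-J1 libraries of FN1 were spread widely, and the highest of them was still under the lowest irradiated library.

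PLAUR, the urokinase receptor, rose from 11.4, 14.4 and 15.5 CPM to 29.1, 31.7 and 36.8 CPM (1.24 ± 0.08). N-cadherin (CDH2) rose by 1.43 ± 0.12 and the YAP target CTGF by 1.45 ± 0.16, while the smooth muscle actin gene ACTA2, a member of the same list, fell by 0.40 on the log2 scale (SE 0.08). AP-1 and early growth response genes gave 13 higher (40.6%) and 2 lower (6.25%) of 32, beside 10.1% of all genes in each direction. Their median was 0.25, and none was called without the block. DUSP4, a MAP kinase phosphatase, was at 1.39 ± 0.14 and the AP-1 subunit FOSL1 at 1.07 ± 0.11. JUND, another subunit, was lower (log2 fold change −0.38 ± 0.07).

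Squamous differentiation genes gave 16 higher (32.7%) and 5 lower (10.2%) of 49, beside 10.1% of all genes tested in each direction. The median log2 fold change was 0.22 (6 and 1 called without the block). SERPINB2 (PAI-2), a serpin of stratified epithelia, rose from 34.99, 36.5 and 72.5 CPM to 133, 215 and 264 CPM (2.11 ± 0.11). The transcription factor genes GRHL3 (1.68 ± 0.17), PRDM1 (1.36 ± 0.17) and KLF4 (0.46 ± 0.10) rose, the last with an adjusted p of 0.0953 without replicate 2. KRT6B also rose (2.08 ± 0.24), from under 1 CPM in every GSK-J1 library and with a trace share of up to 29.5%. DSC3, a desmosomal cadherin of basal layers, fell from 110, 110 and 88.8 CPM to 61.1, 66.5 and 65.1 CPM, a log2 fold change of −0.67 ± 0.08. At least 10% of the replicate 1 counts could be Cal33 trace in 15 of the 49 members, 5 of which were called.

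**Figure D2:**
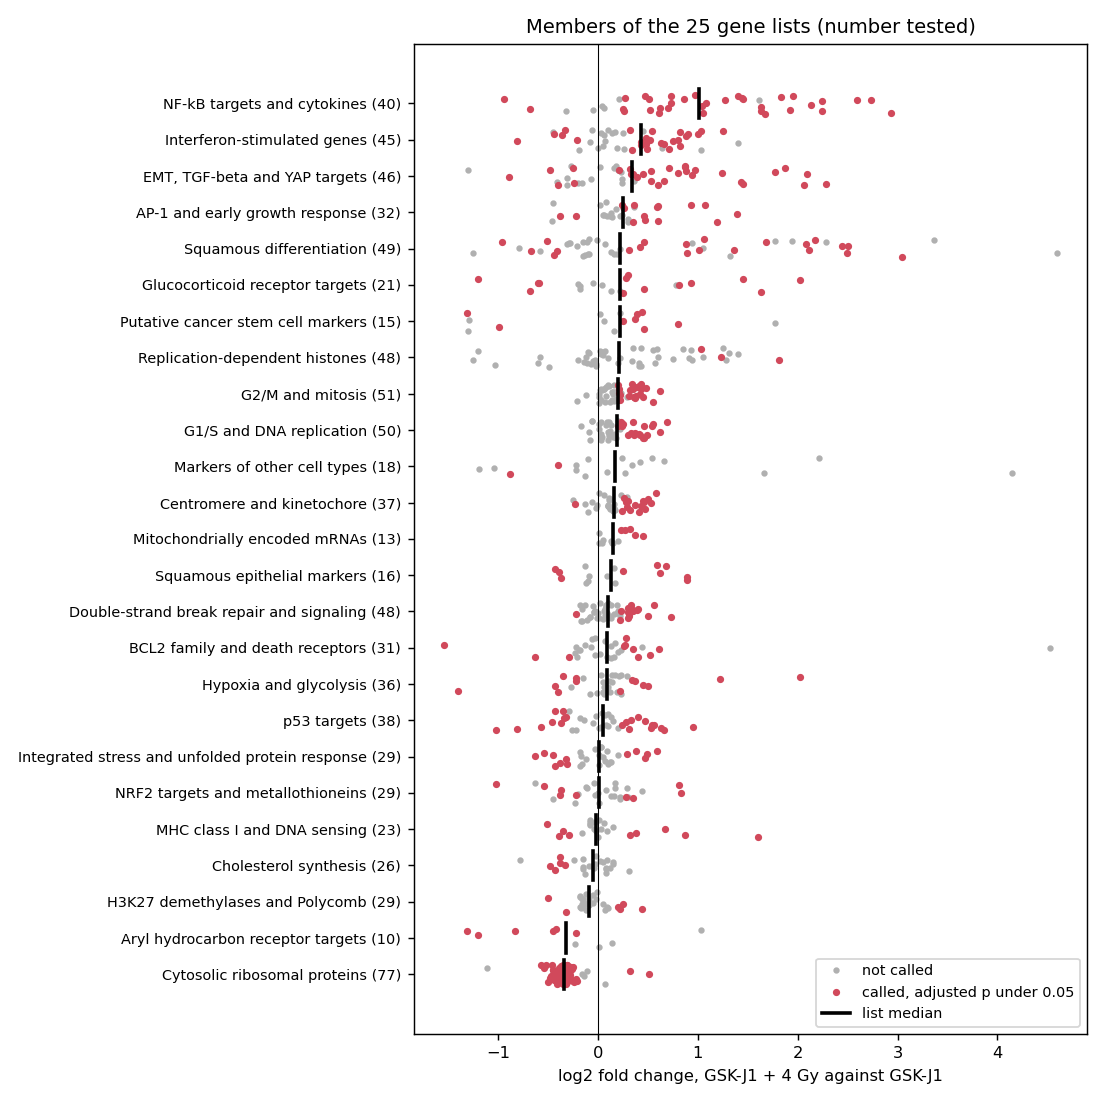
Log2 fold change of the members of 25 gene lists after GSK-J1 plus 4 Gy against GSK-J1 in SAS cells, sorted by list median. Points are genes, red where called and grey where not, black bars are list medians, and the number tested is in brackets. NF-κB targets and cytokines have the highest median (1.01) and cytosolic ribosomal proteins the lowest (−0.34).

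Interferon-stimulated genes gave 21 higher (46.7%) and 5 lower (11.1%) of 45, beside 10.1% of all genes in each direction, with a median log2 fold change of 0.43. The groups did not overlap in 17.8% of the members, beside 25.8% of all genes tested. Without the block 2 were called higher and none lower, and without replicate 1 the counts were 20 and 1. DDX58, which encodes the RNA sensor RIG-I, rose from 11.7, 13.6 and 9.63 CPM to 22.4, 26.6 and 22.0 CPM (1.03 ± 0.08, adjusted p = 8.02e-07). SAMD9 rose by 0.52 ± 0.07 and OAS3, a synthase that activates RNase L, by 0.48 ± 0.07. The ubiquitin-like modifier ISG15 rose from 8.55, 6.35 and 4.10 CPM to 14.9, 10.9 and 8.72 CPM, with groups that did not overlap. The Cal33 trace touches this list most: it could give at least 10% of replicate 1 counts in 26 of the 45 members, 17 of which were called, up to 47% in ISG15, 21.7% in IFI44 and 19.7% in DDX60. Of the 21 members called higher, 5 were not open to the trace. Without replicate 1 the 3 genes named had log2 fold changes of 0.93, 1.12 and 0.93, against 0.88, 1.00 and 0.90 with it.

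Of 23 genes of MHC class I presentation and cytosolic DNA sensing, 5 rose (21.7%) and 4 fell (17.4%), beside 10.1% of all genes in each direction. The median was −0.02 (1 and 0 called without the block). Both ligands of the checkpoint receptor PD-1 rose. PDCD1LG2 (PD-L2) went from 1.19, 0.990 and 0.936 CPM to 3.15, 3.35 and 2.91 CPM (1.6 ± 0.15), and CD274 (PD-L1) from 13.6, 9.36 and 11.7 CPM to 20.3, 16.6 and 18.0 CPM (0.67 ± 0.09). The DNA sensor AIM2 rose by 0.87 ± 0.14. The immunoproteasome subunit PSMB10 fell by 0.51 (SE 0.11) and HLA-F by 0.39 (SE 0.09) on the log2 scale. Without replicate 2 the adjusted p of PSMB10 was 0.0597.

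p53 target genes moved in both directions. Of 38 members, 12 were called higher (31.6%) and 9 lower (23.7%), beside 10.1% of all genes in each direction, and the median log2 fold change was 0.05. Without the block 1 was called in each direction, and without replicate 1 the counts were 12 and 6. The largest rise was that of C12orf5 (TIGAR), which lowers glycolytic flux, from 5.29, 6.16 and 6.91 CPM to 11.5, 12.3 and 11.7 CPM (0.96 ± 0.10, adjusted p = 9.94e-06). CDKN1A (p21), the inhibitor that holds cyclin-dependent kinases, rose from 66.2, 85.1 and 81.7 CPM to 101, 107 and 113 CPM, a log2 fold change of 0.47 ± 0.07. The exonuclease gene AEN (0.63 ± 0.09), GADD45A (0.66 ± 0.10) and the death receptor gene FAS (0.40 ± 0.08) rose too.

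On the other side, XPC, the damage sensor of nucleotide excision repair, fell from 96.3, 93.2 and 92.1 CPM to 68.7, 64.7 and 71.4 CPM (log2 fold change −0.46 ± 0.07). The non-coding RNA gene TP53TG1 fell by 0.81 (SE 0.10) on the same scale. Of 31 genes of the BCL2 family and the death receptors, 7 rose (22.6%) and 3 fell (9.68%), beside 10.1% of all genes in each direction. The median was 0.09, and without the block 1 and 0 were called. The anti-apoptotic BCL2L1 (BCL-XL) rose from 163, 179 and 178 CPM to 266, 261 and 269 CPM (0.61 ± 0.07), and the pro-apoptotic PMAIP1 (NOXA) and BID rose by 0.52 ± 0.10 and 0.35 ± 0.08. TNFSF10 (TRAIL) stood at 69.2, 46.6 and 7.93 CPM under GSK-J1 and at 12.8, 14.2 and 6.49 CPM after irradiation, a log2 fold change of −1.54 ± 0.24 that was −1.05 without replicate 1. Replicate 3 of TNFSF10 was low in both groups, and the groups overlapped.

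**Figure D3:**
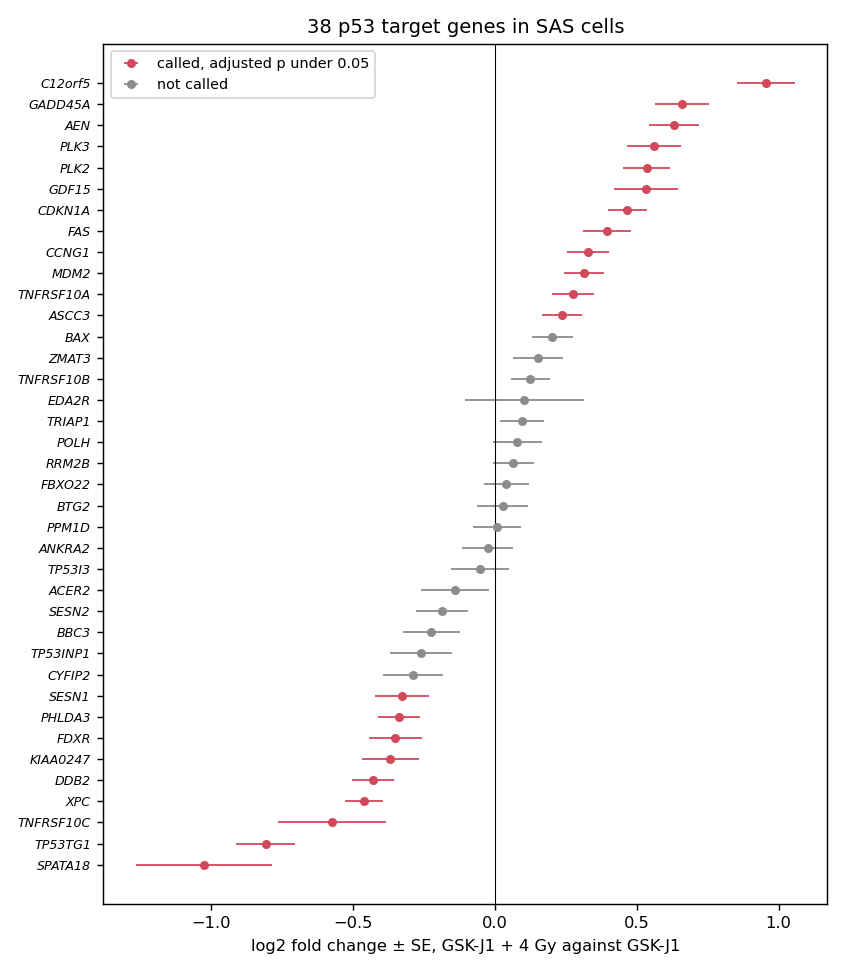
Log2 fold change with its SE for the 38 p53 targets after GSK-J1 plus 4 Gy against GSK-J1 in SAS cells, red where called. The called genes lie on both sides of 0, from −1.02 to 0.96.

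Between 40.5 and 45.1% of the genes of 3 cell cycle lists were called higher, by small amounts, beside 10.1% of all genes tested. Of 51 G2/M and mitosis genes, 23 were called higher and none lower (median 0.20), of 50 G1/S and replication genes 21 and 0 (median 0.19), and of 37 centromere and kinetochore genes 15 and 1 (median 0.16). The log2 fold changes of the members called higher lay between 0.20 and 0.69. These small changes rest on the pairing, since without the block 2, 1 and 1 members were called. Without replicate 1, 18, 16 and 12 members were called higher and 0, 1 and 1 lower.

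The mitotic kinase gene TTK (MPS1) went from 24.6, 29.3 and 26.4 CPM to 36.1, 41.8 and 39.5 CPM (log2 fold change 0.55 ± 0.07, adjusted p = 5.15e-05). The condensin subunit gene NCAPG rose by 0.48 ± 0.07, the checkpoint gene MAD2L1 by 0.43 ± 0.07 and HMMR, a spindle protein, by 0.45 ± 0.07. CENPE, the kinetochore motor, went from 21.1, 30.6 and 28.3 CPM to 35.3, 41.7 and 41.1 CPM (0.58 ± 0.08). In G1/S, CCNE2 (cyclin E2) rose by 0.62 ± 0.09, the replication licensing factor CDC6 by 0.42 ± 0.07 and RRM2, a subunit of ribonucleotide reductase, by 0.46 ± 0.07. In bulk RNA, a larger share of cells in a phase and more RNA per cell cannot be told apart.

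The upstream stretches of the 3 called mitosis genes of smallest p with TTTGAA, the core of the cell cycle homology region, in the last 100 bases before their RefSeq start (GRCh38.p14, 5′ to 3′) are shown because that element and the CCAAT box are textbook features of G2/M promoters. Capitals mark TTTGAA and CCAAT on either strand.
NCAPG, chr4:17810879-17810978, plus strand: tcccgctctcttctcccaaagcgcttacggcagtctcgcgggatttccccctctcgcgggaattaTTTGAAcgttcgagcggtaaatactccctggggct
HMMR, chr5:163460532-163460631, plus strand: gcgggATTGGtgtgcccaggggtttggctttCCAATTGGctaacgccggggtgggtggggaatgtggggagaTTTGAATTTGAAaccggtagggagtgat
SMC4, chr3:160399550-160399649, plus strand: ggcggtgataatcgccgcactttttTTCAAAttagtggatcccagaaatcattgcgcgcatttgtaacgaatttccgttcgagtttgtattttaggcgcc
TTTGAA was found in 15 of the 19 G2/M members called higher that have a 300-base window (78.9%), in 1 of 17 such G1/S members (5.88%) and in 15.4% of all 27305 windows. CCAAT was found in 73.7% and 64.7% of the members and in 35.7% of all windows. TTCGAA was found in 2 of the 19 G2/M members and in none of the 17, against 1.45% of all windows. These counts describe the letters only and say nothing of which factor was bound.

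Of 48 genes of double-strand break repair and signalling, 15 rose (31.2%) and 1 fell (2.08%), beside 10.1% of all genes in each direction. The median was 0.10 (none called without the block, 10 and 0 without replicate 1). FANCB, of the Fanconi anaemia core complex, rose by 0.73 ± 0.11 on the log2 scale and BRCA2, of homologous recombination, by 0.50 ± 0.08. BRCA2 stood at 16.7, 19.5 and 21.9 CPM under GSK-J1 and at 24.6, 30.3 and 27.5 CPM after irradiation. The helicase gene BLM (0.39 ± 0.08) and the resection genes EXO1 (0.40 ± 0.07), RBBP8 (0.33 ± 0.07) and NBN (0.31 ± 0.07) rose. Of 48 replication-dependent histone genes, 3 were called (6.25%, under the 20.2% of all genes tested), all higher (1 without the block). These were HIST1H2AC (1.23 ± 0.18), HIST1H2BD (1.03 ± 0.22) and HIST1H4H (1.81 ± 0.58). HIST1H4H had at most 0.222 CPM in any library and a trace share of up to 18.5%. Its adjusted p was 0.141 without replicate 1 and 0.251 without replicate 2. The 48 genes together summed to 13.2 to 17.3 CPM per library with a median SE of 0.603, so the low share called says little about their response.

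Cytosolic ribosomal protein genes fell together. Of 77 members, 70 were called lower and 2 higher, beside 10.1% of all genes in each direction, with a median log2 fold change of −0.34. In 70 of the 77 (90.9%) the groups did not overlap, beside 25.8% of all genes. The list took 11.7, 10.4 and 11.1% of all counts under GSK-J1 and 8.93, 8.5 and 9.3% after irradiation. The members called lower fell by 0.21 to 0.57 on the log2 scale. RPL3 went from 5112, 4342 and 4159 CPM to 3235, 2767 and 3125 CPM (−0.57 ± 0.08, adjusted p = 8.21e-05) and RPL13A from 3531, 3195 and 3202 CPM to 2322, 2118 and 2398 CPM (−0.54 ± 0.07). Without the block 7 were called lower and none higher, and without replicate 1 the counts were 53 lower and 2 higher.

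The 2 members called higher, RPS26 (0.32) and RPS10 (0.51), were named after their values were seen, and without replicate 2 the adjusted p of RPS10 was 0.117. Ribosomal protein genes have many near-identical pseudogenes, so the counts of all 77 are uncertain to the extent that reads were split among copies. The change varied little with gene length. Over genes with a mean of at least 100 counts, the group of 2591 with the shortest summed exons had a median log2 fold change of −0.025 and 4 groups of longer genes had medians between −0.008 and 0.011. Of the 13 mitochondrially encoded mRNAs, 5 were called higher (38.5%) and none lower, beside 10.1% of all genes in each direction. The median was 0.15 (none called without the block), with MT-ND4L at 0.45 ± 0.07. The mitochondrial share of counts was 3.97, 5.31 and 3.97% under GSK-J1 and 4.67, 6.03 and 4.47% after irradiation, higher in each pair and overlapping between the groups. Without mitochondrial genes and small structural RNAs, 2339 genes were called higher and 2369 lower.

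Among the genes that fell, with the same minimum of 100 counts, the 12 with the largest change lay between log2 fold changes of −2.59 and −1.55. The largest was that of RP1-124C6.1, from 10.1, 6.01 and 2.39 CPM to 1.18, 1.33 and 0.422 CPM (−2.59 ± 0.17). ATOH8, a basic helix-loop-helix transcription factor gene, fell from 35.7, 30.4 and 7.78 CPM to 7.04, 7.37 and 3.12 CPM (−1.93 ± 0.14), and APOL4, of the apolipoprotein L family, from 23.1, 22.2 and 1.67 CPM to 2.67, 4.21 and 0.855 CPM (−2.35 ± 0.23). In these 3 genes the replicate 3 library was the lowest in both groups, and for APOL4 the groups overlapped.

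The others were RP11-54O7.3, the transporter gene SLC47A2 (−1.73 ± 0.11), the prohormone-processing carboxypeptidase gene CPE (−1.67 ± 0.24), the procollagen peptidase gene ADAMTS2 (−1.64 ± 0.15), WISP2 of the CCN family (−1.64 ± 0.11), the inositol phosphate kinase gene IP6K3, the integrin ligand gene EDIL3 (−1.59 ± 0.13), PLAC8 and the troponin gene TNNT3. Without replicate 1, CPE fell by 1.11 on the log2 scale. CPE and PLAC8 also had groups that overlapped. The remaining 9 of the 12 did not, but they too were picked by these values.

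**Figure D4:**
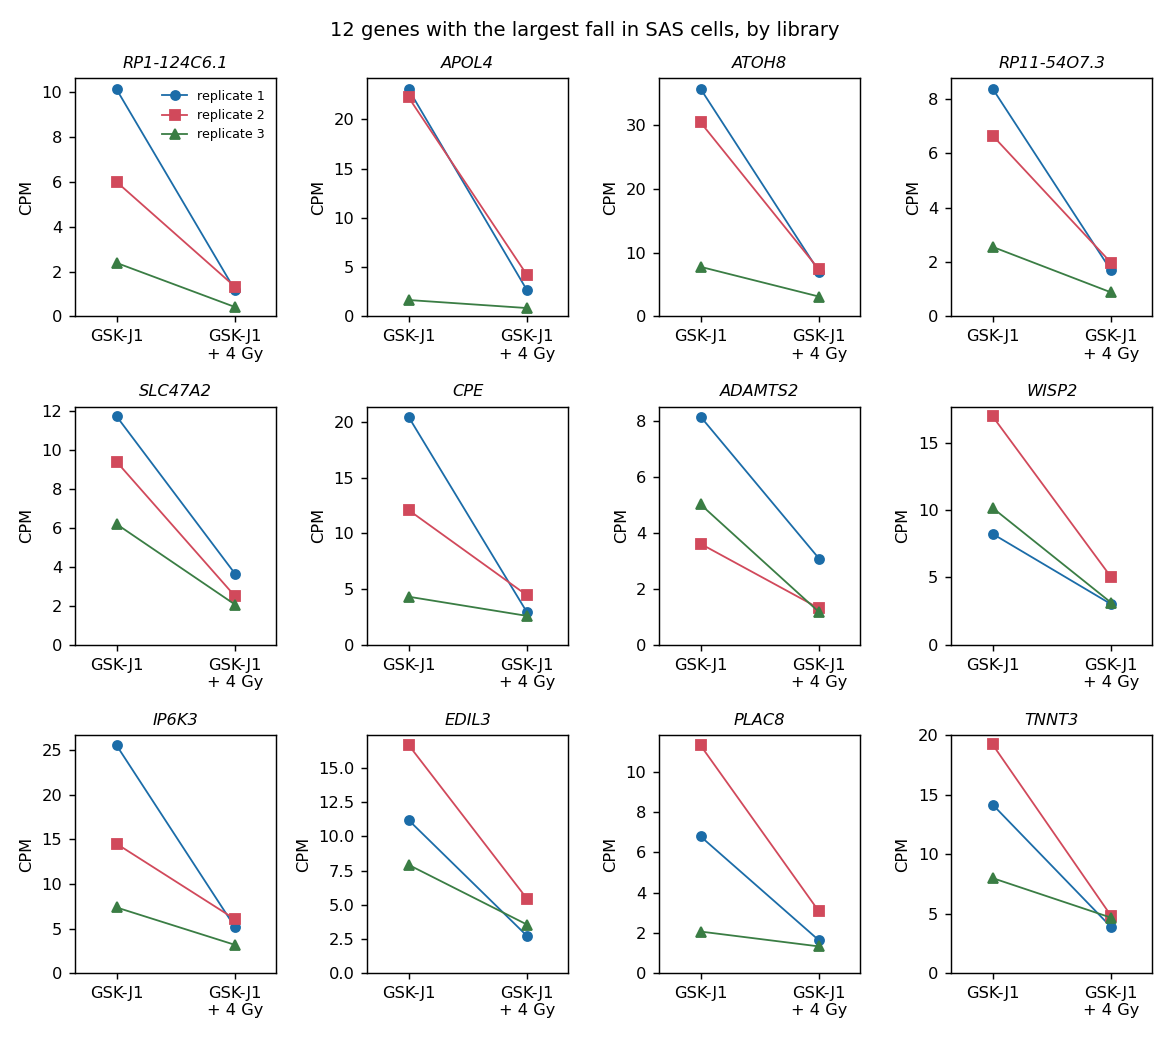
CPM of the 12 genes with the largest log2 fall among called genes with a mean of at least 100 counts, in SAS cells given GSK-J1 (left of each panel) and GSK-J1 plus 4 Gy (right). Each line joins the libraries of 1 replicate number and each axis starts at 0. Every line falls, as the rule that picked the genes required. In panels such as APOL4 replicate 3 starts low, at 1.67 CPM against 23.1 and 22.2 CPM.

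Of 36 hypoxia and glycolysis genes, 7 rose (19.4%) and 6 fell (16.7%), beside 10.1% of all genes in each direction (median 0.09, and 2 and 1 without the block). DDIT4 (REDD1), an inhibitor of mTORC1 that hypoxia and glucocorticoids raise, fell from 370, 262 and 265 CPM to 112, 105 and 120 CPM (−1.40 ± 0.09, adjusted p = 6.2e-08). LDHA, which makes lactate, rose by 0.45 ± 0.08, PGAM1 by 0.34 ± 0.07 and ERO1L by 0.50 ± 0.07. The lipase inhibitor gene ANGPTL4 rose by 2.02 ± 0.18 with a trace share of up to 10.3% and the carbonic anhydrase gene CA12 by 1.22 ± 0.16 with up to 13.1%.

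Of 21 glucocorticoid receptor targets, 9 rose (42.9%) and 4 fell (19%), beside 10.1% of all genes in each direction (median 0.22, and 3 and 1 without the block). SGK1, a kinase that regulates sodium transport, rose from 37.5, 18.6 and 39.1 CPM to 84.9, 78.8 and 85.3 CPM (1.45 ± 0.13). The phosphatase gene DUSP1 rose by 0.93 ± 0.12 and the metallothionein gene MT2A by 0.81 ± 0.11, while METTL7A fell by 1.2 (SE 0.15) on the log2 scale. With DESeq2 and the same block the adjusted p of MT2A was 0.0902.

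Of 10 aryl hydrocarbon receptor targets, 6 fell (60%) and none rose, beside 10.1% of all genes in each direction, with a median of −0.33. Members ranged from −1.31 to 1.03. Without the block 1 was called lower and none higher, and without replicate 1 the counts were 6 and 1. In 3 of the 10, 1 of them called, at least 10% of replicate 1 counts could be Cal33 trace. The 6 include SLC7A5, also in the stress list below, and NFE2L2 (adjusted p = 0.0468, and 0.41 without replicate 1). CYP1B1, a cytochrome P450 that this receptor induces, fell from 19.3, 14.7 and 24.3 CPM to 7.08, 6.71 and 11.8 CPM (−1.2 ± 0.10, adjusted p = 5.53e-07). The conjugating enzyme UGT1A6 fell by 0.83 (SE 0.16) and the receptor repressor AHRR by 0.42 (SE 0.09). For ALDH3A1 (−1.31 ± 0.19) up to 83.5% of the counts of a replicate 1 library could be Cal33 trace, and without replicate 1 it fell by 0.92 on the log2 scale.

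Of 29 genes of the integrated stress and unfolded protein responses, 5 rose (17.2%) and 7 fell (24.1%), beside 10.1% of all genes in each direction. The median was 0.01, and none was called without the block. PHGDH, the first enzyme of serine synthesis, went from 402, 279 and 540 CPM to 231, 198 and 355 CPM (−0.63 ± 0.07), and the amino acid transporter genes SLC7A11, SLC7A5 and SLC3A2 fell by 0.55, 0.45 and 0.39 on the log2 scale. In each of these 4 genes replicate 3 was the highest library in both groups and the groups overlapped. PPP1R15A (GADD34), which reverses the stress block on translation, was called higher (0.59 ± 0.12). Its log2 fold change lay between 0.322 and 0.834 when a pair was left out, and its adjusted p was 0.134 with DESeq2 and the same block and 0.067 with all 12 SAS libraries and the block.

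Of 26 cholesterol synthesis genes, 5 fell (19.2%, beside 10.1% of all genes) and none rose (median −0.05, none called without the block, and 5 lower and 3 higher without replicate 1), and their summed level differed more between replicate numbers than between groups, at 7635, 6082 and 2809 CPM under GSK-J1 and 6201, 4556 and 3494 CPM after irradiation. INSIG1 (−0.43 ± 0.14) and SREBF2 (−0.33 ± 0.09) were among the 5. INSIG1 was lower in 2 of 3 pairs, and in replicate 3 it went from 26.7 to 31.7 CPM. Without replicate 2 the adjusted p was 0.382 for INSIG1 and 0.176 for SREBF2. Of 29 NRF2 targets and metallothioneins, 4 rose (13.8%) and 5 fell (17.2%), not far from the 10.1% of all genes in each direction. The median was 0.01, and none was called without the block. The transporter ABCC3 was lower (−0.38 ± 0.07) and HMOX1, haem oxygenase, higher (0.83 ± 0.19, trace share up to 11.6%).

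Neither target of the inhibitor passed the test at the RNA level. KDM6A stood at 73.9, 84.1 and 85.9 CPM under GSK-J1 and at 77.3, 94.6 and 89.6 CPM after irradiation (log2 fold change 0.10 ± 0.06, adjusted p = 0.329). KDM6B stood at 54.6, 46.9 and 60.0 CPM and at 56.1, 51.3 and 52.2 CPM (−0.01 ± 0.07, adjusted p = 0.944). The RNA level does not measure the activity that GSK-J1 blocks. Of 29 genes of H3K27 demethylation and the Polycomb complexes, 4 were called higher (13.8%) and 2 lower (6.9%), near the 10.1% of all genes in each direction (median −0.09, none called without the block). The Polycomb repressive complex 2 subunits EZH2 (0.20 ± 0.07), EED (0.25 ± 0.07) and SUZ12 (0.22 ± 0.06) were among those called higher, and EZH1 (−0.32 ± 0.07) and the reader CBX7 (−0.50 ± 0.07) fell. The calls of EZH2, EED and SUZ12 each ended when a pair was left out. The adjusted p of EZH2 was 0.167, 0.116 and 0.104 without replicates 1, 2 and 3, that of EED 0.0678 and 0.0719 without replicates 1 and 2, and that of SUZ12 0.123 and 0.0554 without replicates 2 and 3.

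Among 15 putative cancer stem cell markers, 6 rose (40%) and 2 fell (13.3%), beside 10.1% of all genes in each direction (median 0.22, none called without the block). ALDH1A3, the aldehyde dehydrogenase behind much of the ALDH activity of HNSCC cells, rose from 262, 282 and 238 CPM to 341, 356 and 327 CPM, a log2 fold change of 0.39 ± 0.07 (adjusted p = 0.000664). The hyaluronan receptor gene CD44 rose from 655, 614 and 762 CPM to 902, 823 and 900 CPM (0.38 ± 0.07, adjusted p = 0.0016). Neither pair of groups overlapped. The drug efflux pump ABCG2 rose by 0.80 ± 0.13 and BMI1, a Polycomb complex 1 subunit, by 0.44 ± 0.12 (adjusted p = 0.051 without replicate 1 and 0.102 without replicate 2). SOX2 fell (−0.99 ± 0.25), at 1.77, 1.21 and 0.506 CPM and 0.778, 0.413 and 0.474 CPM, with a trace share of up to 53.2% and an adjusted p of 0.115 without replicate 2. PROM1 (CD133) had at most 0.0533 CPM in any of the 6 libraries.

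Markers of squamous epithelium, the labelled cell type, summed to 9747, 11060 and 9412 CPM under GSK-J1 and to 12129, 11620 and 12468 CPM after irradiation. All 16 had enough counts to be tested, as did 18 of 30 markers of other cell types, so that alone does not tell cell types apart. Of the 16, 6 rose (37.5%) and 3 fell (18.8%), beside 10.1% of all genes in each direction (median 0.13, and 3 and 1 without the block). In 1 called member the trace share was up to 49.2%. The simple-epithelium keratins KRT8 and KRT18 rose by 0.62 ± 0.08 and 0.59 ± 0.08 on the log2 scale and the basal keratin KRT14 by 0.68 ± 0.08, from 272, 289 and 268 CPM to 486, 380 and 467 CPM. The laminin gene LAMB3 rose by 0.89 ± 0.09. KRT17 (−0.43 ± 0.07) and TP63, which maintains squamous identity (−0.39 ± 0.07), fell.

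Of 18 markers of other cell types tested, none rose and 2 fell (11.1%, beside 10.1% of all genes), CD14 (−0.88 ± 0.10) and ACTA2. The myeloid marker CD14 was at 4.96 to 14.6 CPM and the smooth muscle marker ACTA2 at 11.8 to 20.1 CPM over the 6 libraries. The summed level of the 18 markers was 109, 104 and 42.1 CPM under GSK-J1 and 51.6, 55.7 and 41.9 CPM after irradiation. The libraries with the highest sums were those with the most CDH5, an endothelial cadherin gene that is itself part of the sum. CDH5 was named after its values were seen, at 61.4, 54.1 and 4.51 CPM and at 12.9, 18.8 and 9.68 CPM (adjusted p = 0.0667). The part of this list in the other results was not tested. Of the other members, DCN, DES, LYZ, MYH11 and HBA1 were at 0.0618 CPM or less in every library.

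The same irradiation without the inhibitor, 4 Gy against sham in 6 other SAS libraries, gave 3869 of 23287 genes called (16.6%), 897 without the block and 1531 without replicate 1. Of these, 2902 were also called under GSK-J1, all in the same direction, which is 60.6% of the genes called under GSK-J1 and 75% of those called without it. Across the 22687 genes tested in both, the log2 fold changes had a Pearson correlation of 0.562, a description over genes that share libraries and are not independent. The difference between both responses was tested gene by gene in all 12 libraries. With edgeR 0 of 23416 genes (0%) passed, and with DESeq2 0. An unadjusted edgeR p under 0.05 was reached by 785 genes, fewer than that threshold passes on average when no gene differs.

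Single genes show the size of the differences and their errors. RGS4 rose by 3.93 with and 3.58 without GSK-J1, a difference of 0.35 ± 0.16 (SE) on the log2 scale, and CSF2 by 2.59 and 3.17, a difference of −0.58 ± 0.23. For DDIT4 the difference was 0.05 ± 0.13, for CDKN1A −0.06 ± 0.10 and for IL6 −0.03 ± 0.31. The list medians without the inhibitor were 0.94 for NF-κB targets and cytokines against 1.01 with it, −0.29 against −0.34 for ribosomal proteins, and 0.22 against 0.43 for interferon-stimulated genes.

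None of the 8 genes with the smallest p of the difference passed. Among them were C9orf84, ASPM, ANKRD12, TFPI, KIAA1107, TRIML2 and ZNF518A, each with an adjusted p of 1. ASPM, a spindle pole protein needed for mitosis in progenitor cells, was at 45.7, 70.6 and 61.5 CPM under GSK-J1, 69.6, 82.8 and 73.7 CPM after GSK-J1 plus 4 Gy, 46.5, 61.9 and 87.1 CPM in sham and 46.3, 55.0 and 69.2 CPM after 4 Gy. Its difference was 0.54 ± 0.12 on the log2 scale. TFPI, an inhibitor of the coagulation starter tissue factor, had a difference of 0.52 ± 0.12.

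**Figure D5:**
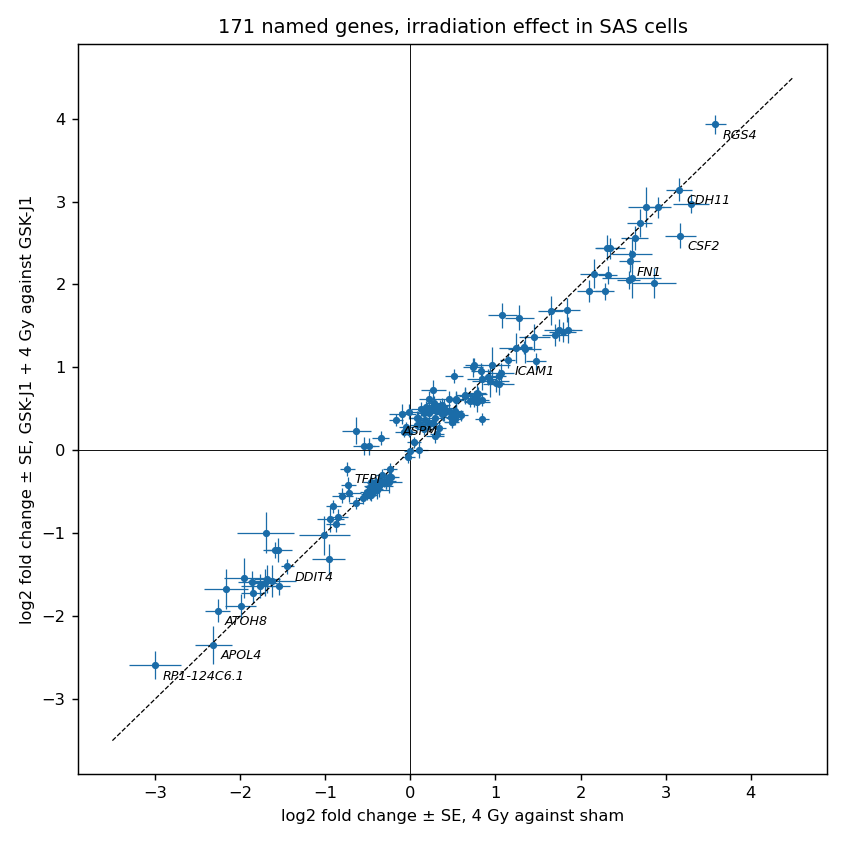
Log2 fold change with its SE of 171 of the 173 genes that the naming rule gave, for GSK-J1 plus 4 Gy against GSK-J1 (vertical axis) and for 4 Gy against sham (horizontal axis) in SAS cells, with the line of equality dashed. The libraries of both axes are different, and the genes were mostly chosen by the vertical axis. RGS4 lies at 3.93 and 3.58 and CSF2 at 2.59 and 3.17.

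Between the lines, the response to 4 Gy under GSK-J1 differed between SAS and Cal33 in 1101 of 24745 genes (4.45%), 414 with a more positive and 687 with a more negative change in SAS. Without the block 9 genes passed, and without replicates 1, 2 and 3 in turn the counts were 484, 1646 and 586. In Cal33, replicate 2 correlated less with its own number (0.106) than the highest differently numbered pair did (0.153). The difference passed in 35 of the 45 interferon-stimulated genes and in 20 of the 40 NF-κB targets and cytokines. All of these had the more negative change in SAS, where the list medians were 0.43 and 1.01 against 1.71 and 1.95 in Cal33. In 26 of the 45 and 8 of the 40, at least 10% of the SAS replicate 1 counts could be Cal33 trace. The part of this trace in the differences was not tested. IL24, a cytokine of the IL-10 family, rose in SAS from 3.35, 3.66 and 4.67 CPM to 11.7, 15.5 and 17.0 CPM and had a difference of −3.87 ± 0.31 (adjusted p = 6.81e-06), with at most 0.157 CPM in Cal33 under GSK-J1. After irradiation IL24 was at 8.57, 0.82 and 1.86 CPM in Cal33. IL7R, the interleukin-7 receptor, was at 149, 114 and 64.0 CPM under GSK-J1 and 112, 121 and 81.1 CPM after GSK-J1 plus 4 Gy in SAS. In Cal33 IL7R went from 12.4, 5.42 and 6.06 CPM to 84.2, 42.5 and 51.4 CPM. F3, the coagulation starter tissue factor, was at 1237, 1029 and 1370 CPM and 1312, 1310 and 1444 CPM in SAS, and at 172, 115 and 147 CPM and 781, 599.6 and 789.5 CPM in Cal33. Both genes overlapped between the groups in SAS and did not in Cal33, where the non-irradiated levels were the lower ones.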

How the data were processed

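The deposited tables hold, per the file headers, whole-number read counts per gene, made by the authors on hs37d5 (the submitters' processing notes name STAR 2.5.3a, Subread 1.5.1 with featureCounts, and SAMtools 1.6; libraries were stranded total RNA). Of these, the column for the gene's own strand entered the tests. Genes averaging 1 count or more over the libraries compared were tested with edgeR 4.0.16 (R 4.3.3): TMM, quasi-likelihood F test, replicate number as a block, Benjamini-Hochberg adjustment, called at 0.05. Numbers pair the libraries because every same-number correlation exceeded 0.1, also in 4 Gy against sham (0.142 to 0.302) and in Cal33 (0.106 to 0.422, where a differently numbered pair reached 0.153). CPM uses TMM library sizes. SE is the size of the log2 fold change divided by the square root of its F statistic, and was not fitted separately. Samples were grouped by their titles. Genes are named where they had the 12 largest changes in either direction (mean of at least 100 counts, same direction in 3 pairs), the 6 smallest p of a list (3 where none was called), the 8 smallest p of a difference between responses, or are KDM6A, KDM6B, CD44, PROM1 or ALDH1A3. The members, the 25 lists and the motifs were chosen with earlier results of these data known. Scripts were tested on simulated counts. Alternatives were DESeq2 1.42.0, other scaling, filters, strands and thresholds, no block, and leaving out each pair. Promoter windows are RefSeq's (GRCh38.p14). Depth was at least 70331447 counts per library. Some genes that the naming rule gave are not reported here.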

Additional observations from a re-analysis of the deposited data

Results flagged for a closer look

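The test of the difference between the irradiation response with and without GSK-J1 in SAS cells gave 0 genes (edgeR, adjusted p of 0.05, 23416 tested) and 0 by DESeq2. The 785 genes at an unadjusted edgeR p under 0.05 are fewer than that threshold passes on average when no gene differs. The same test between SAS and Cal33 under GSK-J1 gave 1101 genes, 414 with the more positive and 687 with the more negative change in SAS, and replicate 1 of the SAS libraries, which holds the Cal33 trace, was among the libraries compared. Among the named genes the differences were −2.899 for IL7R, −2.133 for F3 and −3.865 for IL24 (log2, SAS minus Cal33). No group has 4 samples, so no library was tested as an outlier.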

How the results depend on the processing

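The replicate block had the largest effect of the settings tried. Without the replicate block, 324 genes were called higher and 216 lower, and with all 12 SAS libraries and no replicate block 570 and 466. Against a 1.2-fold change the counts were 767 and 678, and at an adjusted p of 0.01 they were 1331 and 1345. Leaving out each pair gave 1525 to 2300 higher and 1485 to 2424 lower, in fits whose p-values are not on the scale of the full fit. For 4 Gy against sham the count was 897 without the replicate block and 1531 to 4449 with a pair left out. For SAS against Cal33 it was 9 without the replicate block and 484 to 1646 with a pair left out. The causes were not tested. The other counts stayed within 1.5 times of the reported ones, and the count of genes differing with and without GSK-J1 was 0 under every setting run. Genes far from the threshold changed sign in places: IL7R was at −0.054 without the replicate block (6 or all 12 SAS libraries) and −0.153 to 0.218 with a pair left out, KDM6B at −0.083 to 0.09, KIAA1107 at −0.002 to 0.111 and ZNF518A at −0.009 to 0.129 (log2). Rare transcripts are limited by depth.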
